A study of Mus musculus with 11 samples.

Results

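The collagen gene family is described here across 11 cultures of mouse bone marrow monocytes. Its members were the rows of the deposited table whose gene symbol reads Col, a number, the letter a and a number, which gave 44 genes of 21860. The rule reads the symbol and no value. A second step did use values, since it set apart the collagens that were at 0 in all 4 libraries made without Jag1 from those present in every group.

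Monocytes were cultured for 6 days in GM-CSF (20 ng/ml), and CD11b-low EpCAM+ cells resembling Langerhans cells were sorted for bulk RNA sequencing. The TGFβ/IL-34 group (n = 2) also received TGFβ (5 ng/ml) and IL-34 (8 µg/ml), and the TGFβ/IL-34/FICZ group (n = 2) received these and FICZ, an agonist of the aryl hydrocarbon receptor Ahr, whose dose the labels do not state. The TGFβ/IL-34/Jag1 group (n = 3) and the TGFβ/IL-34/Jag1/FICZ group (n = 3) added the Notch ligand Jag1, and 1 further library had GM-CSF and Jag1 alone (Jag1 only). Jag1 came with OP9, a stromal cell line on which the monocytes were seeded. The cell type field of the labels names OP9 for every library, and no group is labelled as OP9 cells without Jag1, so the ligand and the presence of the stroma cannot be told apart. All differences between libraries with and without Jag1 below carry that limit, and the 1 library of Jag1 only enters no test.

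Collagens are proteins of the extracellular matrix whose 3 chains wind into a triple helix, each chain from its own gene. The fibrillar types (I, II, III, V, XI, XXVII) form the cable-like fibrils of connective tissue, and the FACIT types (IX, XIV, XVI, XX) attach to such fibrils. Type IV builds the mesh of basement membranes, type VI forms beaded filaments, type VII anchors the epidermis to the dermis, and types XV and XVIII, the multiplexins, lie in basement membrane zones and carry sugar chains. Fibroblasts and other stromal cells are the usual source of fibrillar collagen, whereas Langerhans cells live in an epidermis that holds little of it. New chains are hydroxylated by prolyl and lysyl hydroxylases, folded with the chaperone Serpinh1, trimmed outside the cell and cross-linked by lysyl oxidases, and cells sense them through receptors such as Ddr1 and the integrin alpha 1 chain Itga1.

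Values are normalized counts, that is gene counts divided by the authors' size and length factors. A single read was worth 0.895 to 1.15 normalized counts in a library, which places the estimated depth at 20.6 to 24.2 M reads and 3 reads at 2.68 to 3.45 normalized counts. Libraries of a group correlated at 0.963 or more on the log2 scale across tested genes, except the pair of TGFβ/IL-34/FICZ, at 0.922. Epcam, the marker of the sort, was present in every library (658 in Jag1 only and 3952 to 14377 in the others), as was the leukocyte gene Ptprc (3297 to 7315). Cd207, which encodes the Langerhans cell protein langerin, was at 154 to 157 in TGFβ/IL-34, at 21.8 in Jag1 only and at 1366 to 1784 in TGFβ/IL-34/Jag1, but at 6.21 to 6.90 in TGFβ/IL-34/FICZ, so this defining marker was near the floor there. In TGFβ/IL-34/Jag1/FICZ it was at 8.39 and 6.29 in replicates 1 and 2 and at 132 in replicate 3. In bulk libraries, fewer cells of a type and less RNA per cell cannot be told apart.

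The sequence just before the start site is shown for 4 collagens, because the results turn on a pair of genes at or near 0 without Jag1 (Col1a1, Col1a2) and a pair present in every library (Col18a1, Col27a1). Each window of 120 bases comes from the GRCm39 genome, upstream of the canonical GENCODE start and free of annotated exons, and is written 5′ to 3′ on the strand of the gene. Capitals mark the CCAAT box (CCAAT, or ATTGG on the other strand), the GC box (GGGCGG or CCGCCC) and the Ahr core (GCGTG or CACGC).
Col1a1: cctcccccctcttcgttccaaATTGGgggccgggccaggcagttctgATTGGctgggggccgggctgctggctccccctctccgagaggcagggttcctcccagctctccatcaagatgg
Col1a2: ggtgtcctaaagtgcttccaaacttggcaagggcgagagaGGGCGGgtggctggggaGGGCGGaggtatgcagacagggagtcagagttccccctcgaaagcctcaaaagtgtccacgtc
Col18a1: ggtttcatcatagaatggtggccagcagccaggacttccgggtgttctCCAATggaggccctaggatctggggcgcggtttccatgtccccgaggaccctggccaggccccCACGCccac
Col27a1: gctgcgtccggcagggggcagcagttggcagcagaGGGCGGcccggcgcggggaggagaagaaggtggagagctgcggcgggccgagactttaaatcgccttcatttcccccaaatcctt

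These windows lie at chr11:94826930-94827049 (plus strand, Col1a1), chr6:4505373-4505492 (plus, Col1a2), chr10:76949815-76949934 (minus, Col18a1) and chr4:63133529-63133648 (plus, Col27a1). Col1a1 held a pair of CCAAT boxes, Col1a2 a pair of GC boxes, Col27a1 a GC box, and Col18a1 a CCAAT box and an Ahr core. Over the 250 bases before the start, the CCAAT box was in 10 of the 25 collagens that reached 10 in some library (40%), against 35.9% of 13070 promoters of tested genes. The GC box was in 11 of 25 (44.0%, against 48.1%) and the Ahr core in 8 of 25 (32%, against 40.02%). TGGGAA, searched on both strands and the core bound by the Notch pathway factor RBPJ, was in 4 of 25 (16%, against 21.9%). These letters are common in promoters of this length, and a match is not a binding site.

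Of the 44 collagens, 25 reached 10 normalized counts in at least 1 library and 19 did not. Among those 19, 10 were at 0 in all 11 libraries: Col6a4, Col6a5, Col6a6, Col9a1, Col4a6, Col11a1, Col13a1, Col19a1, Col25a1 and Col28a1. The other 9 peaked between 1.86 (Col8a2) and 9.18 (Col4a5), and they include Col10a1 and Col8a1 of the short chain type and Col12a1 of the FACIT type. The summed collagen signal was 59.9 to 100.5 per 1 M of the total in the 4 libraries without Jag1, 176 in Jag1 only, 56.3 to 137 in TGFβ/IL-34/Jag1 and 142.5 to 293 in TGFβ/IL-34/Jag1/FICZ. Thus TGFβ/IL-34/Jag1 overlapped the libraries without Jag1, while all 3 libraries with Jag1 and FICZ lay above them. Col27a1 alone made up 19.4% (TGFβ/IL-34/Jag1/FICZ replicate 3) to 57.8% (TGFβ/IL-34 replicate 1) of that sum.

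**Figure D1:**
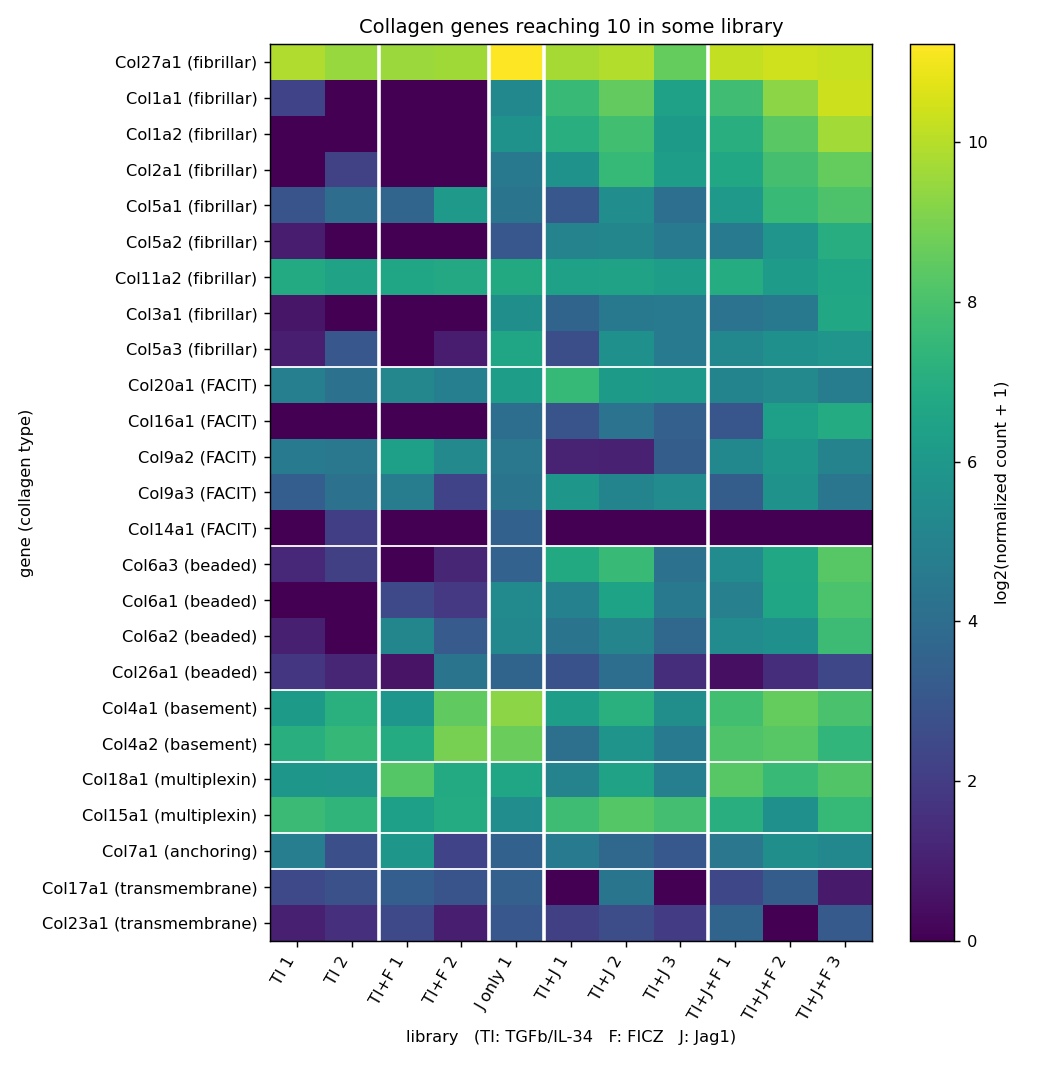
Heatmap of the 25 collagens that reached 10 normalized counts in some library. Rows are genes grouped by collagen type, columns are the 11 libraries grouped by condition (TI, TGFβ/IL-34; F, FICZ; J, Jag1), and colour is log2(normalized count + 1); Col27a1 and Col11a2 are bright in every column, whereas Col1a1, Col1a2, Col2a1, Col3a1 and Col5a2 are dark in the 4 columns without Jag1.

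By the rule of the split, 2 collagens were at 0 in all 4 libraries without Jag1 and reached 10 with it: Col1a2 and Col16a1. Just outside that limit were Col3a1 and Col5a2, whose highest values without Jag1 were 0.592 and 0.847, both under 1 read, so that 4 collagens were at or under 3 reads. With a limit of 5 normalized counts, chosen after the values were seen, 10 collagens were low without Jag1: these 4 and Col1a1, Col2a1, Col6a1, Col6a3, Col14a1 and Col23a1. Col23a1 (4.606) and Col6a1 (4.604) were the last inside and Col5a3 (7.23) the first outside. The values below describe these genes and carry no test, because the Jag1 libraries chose them.

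Col1a1 and Col1a2 encode the chains of type I collagen, the main fibrillar collagen of skin, bone and tendon. Col1a2 was at 0 in all 4 libraries without Jag1, at 52.9 in Jag1 only, at 131, 229 and 69.1 in TGFβ/IL-34/Jag1 and at 133, 331 and 823 in TGFβ/IL-34/Jag1/FICZ. Against 3 reads per library its mean was at least 49.9-fold higher with Jag1 in the absence of FICZ and at least 140-fold higher in its presence. Col1a1 was at 3.84 in TGFβ/IL-34 replicate 1 and at 0 in the other 3 libraries without Jag1. With Jag1 it was at 37.4 (Jag1 only), 191, 369 and 84.1 (TGFβ/IL-34/Jag1) and 222, 625 and 1345 (TGFβ/IL-34/Jag1/FICZ). All 7 libraries with Jag1 lay above all 4 without for both genes. Per kb of transcript, the Col1a1 to Col1a2 ratio was 0.639 in Jag1 only, 1.10 to 1.46 in TGFβ/IL-34/Jag1 and 1.48 to 1.70 in TGFβ/IL-34/Jag1/FICZ.

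Col2a1, the chain of the type II collagen of cartilage, was at 3.65 in TGFβ/IL-34 replicate 2 and at 0 in the other 3 libraries without Jag1. It was at 22.3 in Jag1 only, at 53.2, 184 and 75.1 in TGFβ/IL-34/Jag1 and at 105, 239 and 379 in TGFβ/IL-34/Jag1/FICZ. Again no library with Jag1 overlapped those without. Col5a2, a chain of the type V collagen that joins type I fibrils, was at most at 0.847 without Jag1, at 7.33 in Jag1 only, at 31.8, 34.9 and 22.7 in TGFβ/IL-34/Jag1 and at 23.8, 56.1 and 125 in TGFβ/IL-34/Jag1/FICZ. Col3a1, the type III collagen found with type I in soft tissue, was at 46.9 in Jag1 only, at 11.2 to 22.7 in TGFβ/IL-34/Jag1 and at 18.4 to 107 in TGFβ/IL-34/Jag1/FICZ. The libraries differed in the makeup of this set, since Col3a1 was 1.26 times Col1a1 in Jag1 only and 0.0361 to 0.270 times in the 6 libraries with Jag1 and TGFβ/IL-34.

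Col16a1, the FACIT member at 0 without Jag1, was at 15.9 in Jag1 only, at 6.64, 18.2 and 9.99 in TGFβ/IL-34/Jag1 and at 6.98, 80.6 and 119 in TGFβ/IL-34/Jag1/FICZ. Of these 7 values, 3 were under 10. Col14a1, another FACIT member, reached 10.1 in Jag1 only, was at 3.30 in TGFβ/IL-34 replicate 2, and was at 0 in the other 9 libraries, and the transmembrane Col23a1 reached 11.2 only in TGFβ/IL-34/Jag1/FICZ replicate 1.

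**Figure D2:**
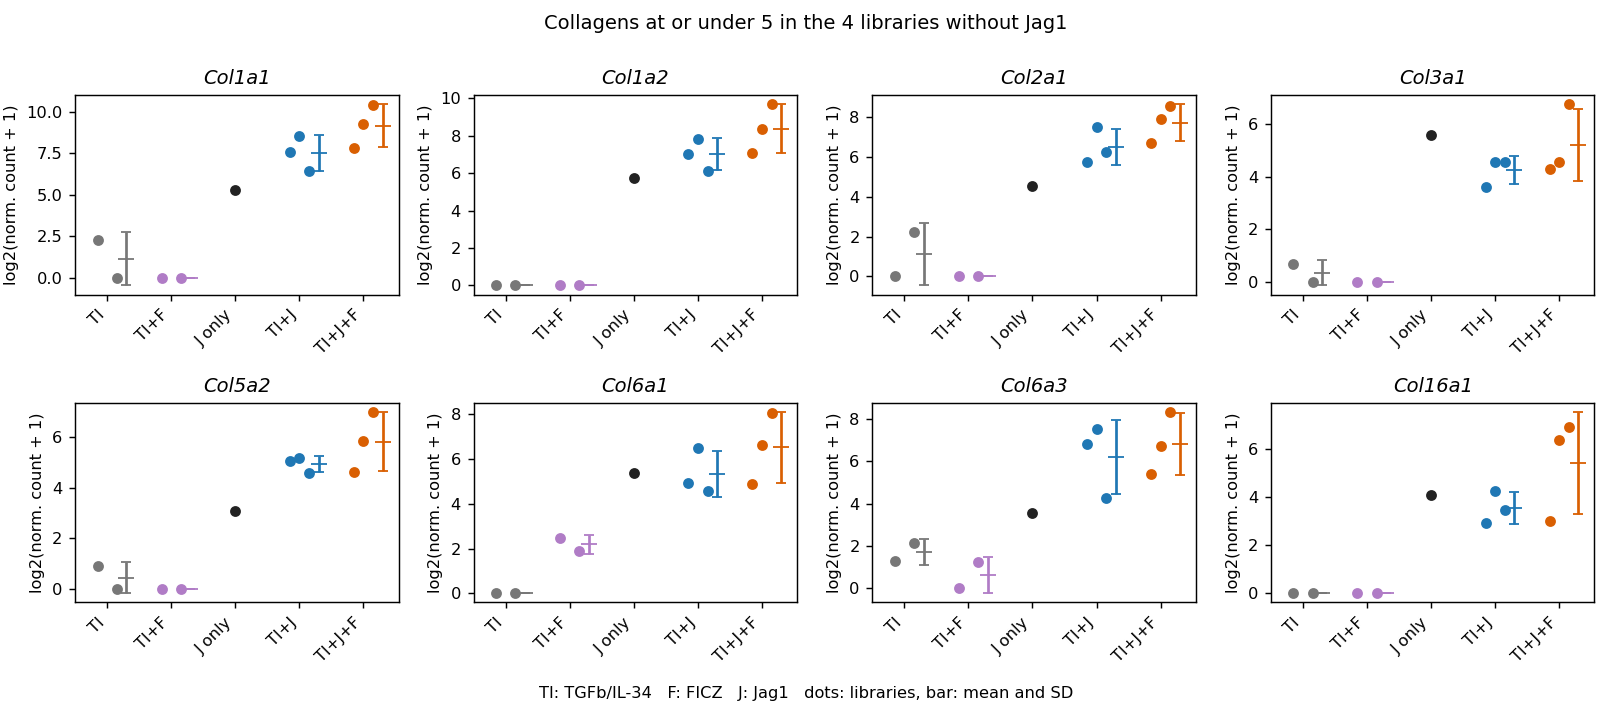
Values of 8 of the 10 collagens that were at or under 5 normalized counts in the 4 libraries without Jag1. Col14a1 and Col23a1 are not shown, and for both the libraries with and without Jag1 overlapped. Each dot is a library, on the y axis as log2(normalized count + 1), and bars give the mean and SD on that scale for groups of 2 or 3 (TI, TGFβ/IL-34; F, FICZ; J, Jag1); the TI+J and TI+J+F libraries lie above the TI and TI+F libraries in every panel.

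Type VI collagen, which forms beaded filaments around cells, is made of the chains Col6a1, Col6a2 and Col6a3. Col6a1 was at 0 and 0 in TGFβ/IL-34, at 4.604 and 2.69 in TGFβ/IL-34/FICZ, at 40.5 in Jag1 only, at 29.6, 89.5 and 22.5 in TGFβ/IL-34/Jag1 and at 28.8, 98.1 and 265 in TGFβ/IL-34/Jag1/FICZ. Col6a3 was at 0 to 3.36 without Jag1, at 10.6 in Jag1 only, at 114, 186 and 17.9 in TGFβ/IL-34/Jag1 and at 41.7, 105 and 321 in TGFβ/IL-34/Jag1/FICZ. Both chains were higher in every library with Jag1 than in any without. Col6a2 differed from them, with 0.985 and 0 in TGFβ/IL-34 but 34.3 and 8.31 in TGFβ/IL-34/FICZ. It was at 36.3 in Jag1 only, at 18.8, 33.8 and 12.6 in TGFβ/IL-34/Jag1 and at 42.3, 49.5 and 204 in TGFβ/IL-34/Jag1/FICZ. Thus Col6a2 in TGFβ/IL-34/FICZ overlapped the libraries with Jag1. Col26a1 of the same broad type ranged from 0.385 to 19.1.

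Col5a3, another type V chain, lay just outside the limit of 5. It was at 0.910 and 7.23 in TGFβ/IL-34, at 0 and 0.854 in TGFβ/IL-34/FICZ, at 99.5 in Jag1 only, at 5.40, 48.4 and 23.2 in TGFβ/IL-34/Jag1 and at 37.1, 49.5 and 57.8 in TGFβ/IL-34/Jag1/FICZ. The Jag1-only library was the highest, unlike for Col1a1, Col1a2, Col2a1 and Col5a2, where it was the lowest of the 7 libraries with Jag1.

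Some stroma markers that are not collagens were also at or near 0 without Jag1, and others were not. Of 12 such markers tested, 7 met the filter only through the Jag1 libraries. Of the other 5, only Thy1 was called for Jag1 in the absence of FICZ, beside 6.60% of all genes tested. Thy1 fell (790 and 1185 against 177, 284 and 228, log2 difference -2.10, SE 0.43, adjusted p = 0.018 by limma). In the presence of FICZ 0 of the 5 were called, beside 2.02% of all genes, and nothing is read from these counts. Fstl1 was at 84.6 and 55.2 in TGFβ/IL-34 and at 44.1, 113 and 49.2 in TGFβ/IL-34/Jag1, with overlapping groups. Of the full list of 16 markers, 6 were at 0 in all 4 libraries without Jag1, and of those 3 reached 10 with it: Fbln2, which binds matrix, Pdgfra, a growth factor receptor of fibroblasts, and Cxcl12, a chemokine of marrow stroma. Fbln2 was at 319 in Jag1 only, at 59.5 to 169 in TGFβ/IL-34/Jag1 and at 116 to 544 in TGFβ/IL-34/Jag1/FICZ. The small matrix proteoglycans Dcn and Lum, both defining markers of fibroblasts, were at 0 in all 11 libraries, whereas Bgn, of the same family, was at 0 to 10.9 without Jag1 and at 82.6 to 1393 with it. The summed level of the 16 markers was 946 to 12538 without Jag1, 2208 in Jag1 only, 633 to 1071 in TGFβ/IL-34/Jag1 and 14736 to 17079 in TGFβ/IL-34/Jag1/FICZ. Thy1 and Igfbp7 took a large part of it outside TGFβ/IL-34/Jag1, and were also high in TGFβ/IL-34/FICZ. A further sum left those genes out, a choice made after the values were seen. That sum was 52.0 to 133 without Jag1, 661 in Jag1 only, 411 to 711 in TGFβ/IL-34/Jag1 and 525 to 3197 in TGFβ/IL-34/Jag1/FICZ. The summed 10 collagens low without Jag1 were at 4.94 to 12.2, 251, 327 to 1138 and 591 to 3492 in the same order. TGFβ/IL-34/Jag1/FICZ replicate 3 had the highest value for 8 of these 10 collagens and for 8 of the 14 stroma markers above 0 in some library, and also for the Jag1 transcript (1397, against 113 to 891 in the other libraries). The part of carried-over OP9 cells in these values was not tested.

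**Figure D3:**
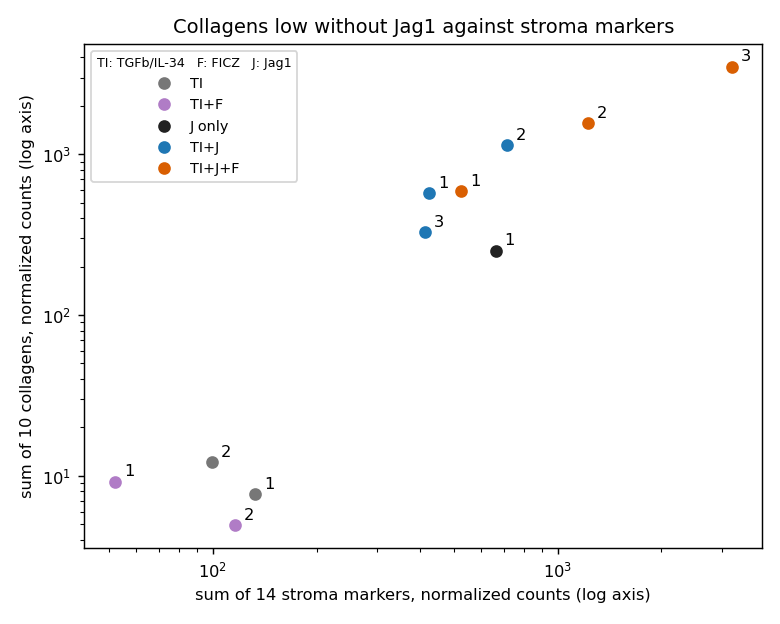
Summed normalized counts of the 10 collagens at or under 5 without Jag1 (y axis) against 14 stroma markers, the list without Thy1 and Igfbp7 (x axis), both on log axes. Those genes were left out after their values were seen, and over the full list the libraries without Jag1 overlap those of TI+J. Each dot is a library, numbered by replicate (TI, TGFβ/IL-34; F, FICZ; J, Jag1); the 4 libraries without Jag1 lie at the lower left and TI+J+F replicate 3 at the upper right.

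In the fit over all 13095 genes tested, 23 collagens passed the filter of 10 normalized counts in at least 2 libraries. With Jag1 against without it in the absence of FICZ, 11 of them passed an adjusted p of 0.05 (9 higher, 2 lower), beside 6.60% of all genes tested. In the presence of FICZ, 9 were called, all higher, beside 2.02% of all genes. However, 12 of the 23 met the filter only through libraries with Jag1, which favours a difference, and they gave 8 of the 11 calls and all 9. Nothing is read from these counts. Over the 11 that met the filter without those libraries, the median difference was -0.29 and 0.46 on the log2(value + 1) scale, against -0.0041 and 0.05 over all genes. Without FICZ the count went to 4 or 3 when TGFβ/IL-34 replicate 1 or 2 was left out and to 6 without TGFβ/IL-34/Jag1 replicate 1 or 2. With FICZ it went to 5 without TGFβ/IL-34/FICZ replicate 1 or TGFβ/IL-34/Jag1/FICZ replicate 2 or 3, and to 0 under array weights.

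Of the 11 collagens that met the filter without the Jag1 libraries, 3 were called for Jag1 without FICZ and 0 with FICZ. Col4a2, a chain of the basement membrane mesh, was at 131 and 177 in TGFβ/IL-34 and at 16.9, 54.5 and 23.1 in TGFβ/IL-34/Jag1, and fell by 2.41 on the log2 scale (SE 0.62, adjusted p = 0.047 by limma). Col9a2, a chain of the FACIT type IX collagen, was at 24.9 and 21.8 in TGFβ/IL-34 and at 1.14, 1.04 and 8.83 in TGFβ/IL-34/Jag1 (log2 difference -2.80, SE 0.73, adjusted p = 0.049). Col20a1, a FACIT member, was at 27.7 and 17.7 in TGFβ/IL-34 and rose to 181, 67.6 and 62.7 in TGFβ/IL-34/Jag1 (log2 difference 2.00, SE 0.51, adjusted p = 0.043). The groups of each gene did not overlap, but each call was lost without some libraries: the adjusted p went up to 0.34 (Col4a2), 0.27 (Col9a2) and 0.36 (Col20a1), each time without TGFβ/IL-34 replicate 2. Without replicate 1 of that group it was 0.18, 0.26 and 0.14. Without TGFβ/IL-34/Jag1 replicate 1 it was 0.15, 0.14 and 0.097, without replicate 2 it was 0.12 for Col9a2 and 0.057 for Col20a1, and without replicate 3 it was 0.12 for Col4a2. With the experiment code as a block, Col4a2 (log2 difference -2.17, adjusted p = 0.0504), Col20a1 (1.76, adjusted p = 0.067) and Col9a2 (-2.71, adjusted p = 0.094) were not called either, nor were they without the filter on low values (0.097, 0.075 and 0.082 in the same order). The call of Col9a2 was lost in 13 of 15 alternatives.

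The collagens present in every group, by a mean of at least 10 in each, were 10: Col27a1, Col11a2, Col5a1, Col4a1, Col4a2, Col15a1, Col18a1, Col20a1, Col9a3 and Col7a1. The lowest group means inside the limit were 10.4 (Col7a1) and 10.97 (Col5a1), and the nearest outside was Col17a1 at 4.72. Col27a1, a fibrillar collagen best known from cartilage, had the highest group mean by count and per kb of transcript in every group. It was at 945 and 733 in TGFβ/IL-34, at 734 and 783 in TGFβ/IL-34/FICZ, at 2402 in Jag1 only, at 851, 971 and 384 in TGFβ/IL-34/Jag1 and at 1186, 1376 and 1240 in TGFβ/IL-34/Jag1/FICZ. The Jag1-only library stood above the rest. Per kb, its group means were 96.6 to 316, and the next collagen was Col15a1 in TGFβ/IL-34 (31.5) and TGFβ/IL-34/Jag1 (43.5), Col4a2 in TGFβ/IL-34/FICZ (44.4), Col4a1 in Jag1 only (92.7) and Col1a1 in TGFβ/IL-34/Jag1/FICZ (123).

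Col11a2, a minor fibrillar chain of cartilage, varied least of the 25. It was at 115 and 87.3 in TGFβ/IL-34, at 98.1 and 108 in TGFβ/IL-34/FICZ, at 113 in Jag1 only, at 84.5, 86.9 and 75.0 in TGFβ/IL-34/Jag1 and at 123, 70.6 and 98.7 in TGFβ/IL-34/Jag1/FICZ, a range of 1.74-fold. Its partner in cartilage fibrils, Col11a1, was at 0 throughout. Col15a1, a multiplexin, was at 202 and 161 in TGFβ/IL-34, at 80.1 and 120 in TGFβ/IL-34/FICZ, at 44.9 in Jag1 only, at 213, 305 and 233 in TGFβ/IL-34/Jag1 and at 136, 49.3 and 183 in TGFβ/IL-34/Jag1/FICZ. Both groups without FICZ lay above their FICZ counterparts, with log2 differences of -0.87 (SE 0.54, adjusted p = 0.36) without Jag1 and -1.20 (SE 0.44, adjusted p = 0.091) with it, neither past the threshold in limma. Col7a1, the anchoring fibril collagen, ranged from 3.72 to 59.98 with overlapping groups, and Col9a3, a type IX chain, from 3.75 to 60.6. Col17a1, a transmembrane collagen of the attachments between epidermis and basement membrane, was outside the class and ranged from 0 to 19.5.

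FICZ added to TGFβ/IL-34/Jag1 raised 4 collagens and lowered 1 of the 23 tested, beside 17.7% of all genes tested, so the share called (5 of 23) is close to that of the table as a whole. The median collagen difference was 1.22 on the log2 scale, against -0.0083 over all genes. The 5 called genes were among the 11 that met the filter without the Jag1 libraries, and 0 of the other 12 were called. The count went to 3 without TGFβ/IL-34/Jag1 replicate 1 or TGFβ/IL-34/Jag1/FICZ replicate 2.

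Col4a1 and Col4a2 encode the chains of the most widespread type IV collagen and lie head to head on chromosome 8. Their GENCODE annotations overlap by 356 bases, where reads cannot be assigned without strand. Col4a2 was at 16.9, 54.5 and 23.1 without FICZ and at 277, 314 and 169 with it, a rise of 3.095 (SE 0.56, adjusted p = 0.0036). Col4a1 was at 75.7, 141 and 46.1 without FICZ and at 225, 384 and 255 with it, and although the groups did not overlap, its difference of 1.81 (SE 0.63, adjusted p = 0.077) missed the threshold. The ratio of Col4a1 to Col4a2 was 2.00 to 4.48 in TGFβ/IL-34/Jag1 and 0.495 to 1.51 in the other 8 libraries. Without Jag1 the pair was at 68.7 and 141 (Col4a1) and 131 and 177 (Col4a2) in TGFβ/IL-34. In TGFβ/IL-34/FICZ replicate 1 was at 58.3 and 118 and replicate 2 at 355 and 482, so this pair was wide apart. In Jag1 only they were at 613 and 411.

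Col18a1, a multiplexin whose end fragment is endostatin, was at 31.6, 86.7 and 27.5 in TGFβ/IL-34/Jag1 and at 319, 193 and 290 with FICZ added, a rise of 2.60 (SE 0.49, adjusted p = 0.0046). It was at 60.1 and 56.8 in TGFβ/IL-34, at 310 and 115 in TGFβ/IL-34/FICZ and at 99.1 in Jag1 only. Without Jag1 the groups did not overlap either, with a difference of 1.68 (SE 0.60, adjusted p = 0.28). Col9a2 was at 1.14, 1.04 and 8.83 without FICZ and rose to 37.2, 60.6 and 31.9 with it (log2 difference 3.61, SE 0.65, adjusted p = 0.0037). It was at 79.4 and 37.6 in TGFβ/IL-34/FICZ and at 21.8 in Jag1 only, so the TGFβ/IL-34/Jag1 libraries were the lowest of all. The calls of Col18a1, Col4a2 and Col9a2 held with each of the 6 libraries left out and in every other fit tried, with adjusted p of at most 0.026.

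Col5a1, the fibrillar type V chain that starts type I fibrils, was at 7.16, 44.5 and 16.4 in TGFβ/IL-34/Jag1 and at 63.5, 195 and 276 with FICZ (log2 difference 3.03, SE 0.83, adjusted p = 0.031). It was at 6.65 and 15.3 in TGFβ/IL-34, at 11.6 and 66.5 in TGFβ/IL-34/FICZ and at 19.1 in Jag1 only. Col20a1 went the other way, from 181, 67.6 and 62.7 to 32.7, 37.6 and 25.5, and fell by 1.51 (SE 0.45, adjusted p = 0.044). It was at 35.3 and 27.8 in TGFβ/IL-34/FICZ and at 75.9 in Jag1 only. Neither call held without the filter on low values (adjusted p = 0.064 for Col5a1 and 0.07025 for Col20a1). That of Col20a1 was also lost with the flow cell, as read from the column names, as a block (0.057). Both also depended on single libraries. That of Col5a1 was lost without TGFβ/IL-34/Jag1 replicate 1 (adjusted p = 0.11) or 3 (0.086) and without TGFβ/IL-34/Jag1/FICZ replicate 2 (0.11) or 3 (0.11). That of Col20a1 was lost without TGFβ/IL-34/Jag1 replicate 1 (0.13) or 2 (0.057) and without TGFβ/IL-34/Jag1/FICZ replicate 1 (0.11), 2 (0.093) or 3 (0.13).

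Each of the 3 experiment codes in the sample descriptions held 1 library with and 1 without FICZ in the presence of Jag1, so the differences could be read within an experiment. On the log2 scale these were 3.29, 1.15 and 3.36 for Col18a1, 3.96, 2.51 and 2.82 for Col4a2, 4.16, 4.92 and 1.75 for Col9a2, 2.98, 2.11 and 3.997 for Col5a1 and -2.43, -0.83 and -1.27 for Col20a1. Since the groups of these 5 genes do not overlap, 1 sign in all 3 experiments was fixed beforehand and adds nothing to the calls. Among the collagens low without Jag1, the differences were 0.22, 0.76 and 3.98 for Col1a1, 0.025, 0.53 and 3.56 for Col1a2 and 0.97, 0.38 and 2.32 for Col2a1. All were above 0, and the largest was each time in the experiment that holds TGFβ/IL-34/Jag1/FICZ replicate 3. Col6a3 had -1.43, -0.82 and 4.09. In the fit, Col1a1 (log2 difference 1.65, SE 0.80, adjusted p = 0.20), Col1a2 (1.37, SE 0.66, adjusted p = 0.20) and Col2a1 (1.22, SE 0.72, adjusted p = 0.30) had overlapping groups and did not pass the threshold.

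**Figure D4:**
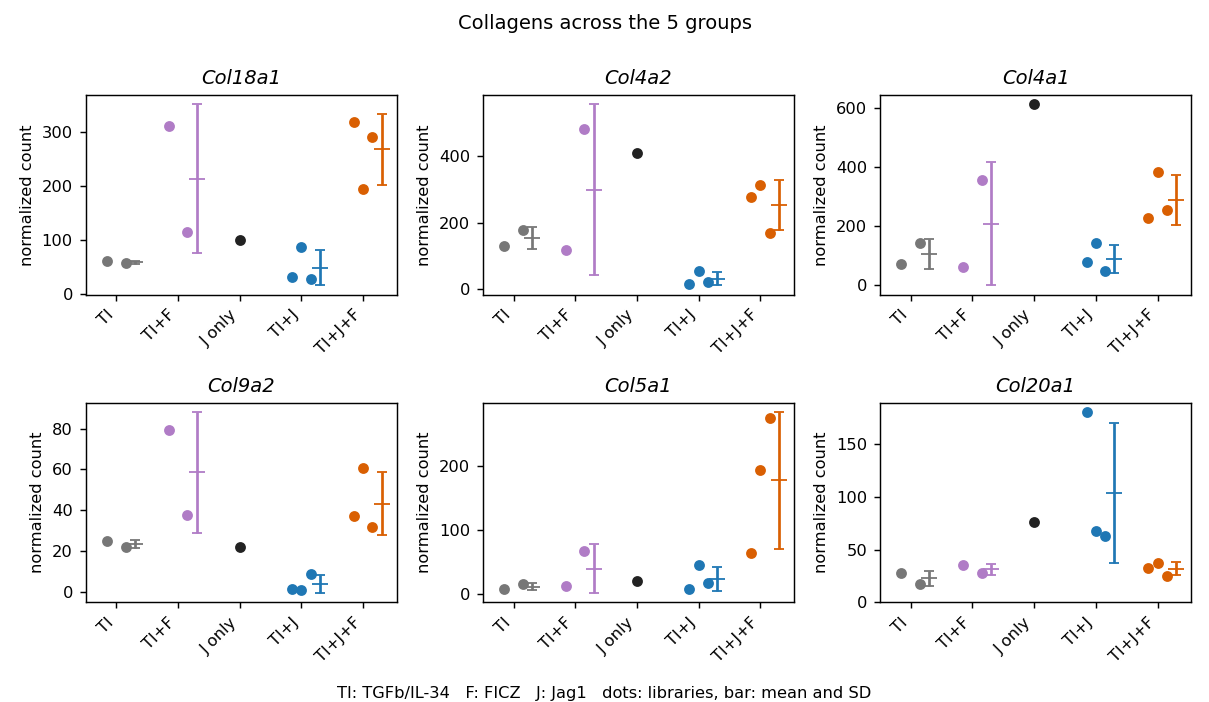
Normalized counts of 6 collagens in the 5 groups, on a linear y axis. Each dot is a library and bars give the mean and SD for groups of 2 or 3 (TI, TGFβ/IL-34; F, FICZ; J, Jag1); TI+J+F lies above TI+J for Col18a1, Col4a2, Col4a1, Col9a2 and Col5a1 and below it for Col20a1, and the TI+F pair is wide apart for Col18a1, Col4a1 and Col4a2.

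FICZ without Jag1 gave 0 calls among the 23 collagens by limma, beside 0.0229% of all genes tested. At an unadjusted p under 0.05 there were 3: Col6a2 (log2 difference 3.69, SE 0.92, adjusted p = 0.26), Col18a1 and Col6a1 (2.19, SE 0.97, adjusted p = 0.29). Col6a2 and Col6a1 met the filter only through the Jag1 libraries. The share of all genes at this unadjusted limit is not reported here. Nothing is therefore read from this count, or from that of the interaction below. The groups held 2 libraries each, and the TGFβ/IL-34/FICZ pair was the least alike of any group. A code in the column names, read here as the flow cell though no label names it, differs within that pair. It also differs between replicate 1 and the other replicates of TGFβ/IL-34/Jag1/FICZ. Whether the flow cell bears on the spread of the pair was not tested. An interaction term compared the FICZ effect in the presence of Jag1 with that in its absence, and called 0 of 23 collagens, beside 1.39% of all genes tested, with 3 at an unadjusted p under 0.05. These were Col4a2 (2.45, SE 0.88, adjusted p = 0.20), Col20a1 (-1.99, SE 0.72, adjusted p = 0.20) and Col9a2 (2.41, SE 1.03, adjusted p = 0.25). A FICZ effect on these collagens that differs with Jag1 was therefore not shown. Without TGFβ/IL-34/FICZ replicate 2, 2 collagens were called in each of these comparisons.

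Genes that make, sense or break down collagen were taken from a list of 47, of which 39 were tested, 9 of them through the Jag1 libraries alone. Of the other 30, Jag1 without FICZ changed 5 (2 higher, 3 lower), beside 6.60% of all genes tested, and Jag1 with FICZ 1, which was higher, beside 2.02%. Of the 9, Lox was called in both comparisons and Ddr2 with FICZ, and nothing is read from these. FICZ with Jag1 changed 9 of the 39 (6 higher, 3 lower), a share near the 17.7% of all genes, and 8 of the 30 (5 higher). The median difference on the log2 scale was 0.33 over the 39 and 0.13 over the 30, against -0.0083 over all genes. FICZ without Jag1 changed 0 by limma, beside 0.0229% of all genes, and the interaction called 3, beside 1.39% of all genes.

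Among the receptors, Ddr1, a tyrosine kinase that fibrillar and type IV collagens activate, was at 82.4 and 80.4 in TGFβ/IL-34, at 104 and 180 in TGFβ/IL-34/FICZ, at 507 in Jag1 only, at 11.1, 13.3 and 14.3 in TGFβ/IL-34/Jag1 and at 128, 266 and 135 in TGFβ/IL-34/Jag1/FICZ. It fell by 2.58 with Jag1 (SE 0.40, adjusted p = 0.0043, or 0.059 without TGFβ/IL-34 replicate 2) and rose by 3.60 when FICZ was added to Jag1 (SE 0.36, adjusted p = 0.00014). Itga1, the alpha chain of a collagen-binding integrin, was at 3492 and 3470 in TGFβ/IL-34, at 847 and 4396 in TGFβ/IL-34/FICZ, at 1602 in Jag1 only, at 206, 335 and 557 in TGFβ/IL-34/Jag1 and at 3279, 3230 and 4604 in TGFβ/IL-34/Jag1/FICZ. It fell by 3.36 with Jag1 (SE 0.59, adjusted p = 0.0078) and rose by 3.43 with FICZ in its presence (SE 0.53, adjusted p = 0.0015). The first of these was lost without TGFβ/IL-34 replicate 1 (0.072) or 2 (0.087). Both receptors were thus lowest in the TGFβ/IL-34/Jag1 libraries, as Col9a2 was. The Jag1 call without FICZ and the FICZ call with Jag1 both rest on those libraries, so they are not independent results. The same holds for Mmp8, Mmp13, Col4a2, Col9a2 and Col20a1.

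Of the enzymes that cut collagen, Mmp8, a collagenase of neutrophils, was at 0, 2.08 and 6.87 in TGFβ/IL-34/Jag1 and between 159 and 1036 in the other 8 libraries. It fell by 6.27 with Jag1 (SE 0.73, adjusted p = 0.00092) and rose by 6.92 with FICZ in its presence (SE 0.65, adjusted p = 0.00010). Mmp13, another collagenase, was at 691 in Jag1 only, at 45.5, 125 and 162 in TGFβ/IL-34/Jag1 and at 6.91 to 36.3 in the other 7 libraries. It rose by 2.66 with Jag1 (SE 0.60, adjusted p = 0.026) and fell by 2.04 when FICZ was added (SE 0.54, adjusted p = 0.025). Neither call held with every library left out: the first was lost without either library of TGFβ/IL-34 (replicate 1, 0.23, replicate 2, 0.10) and without TGFβ/IL-34/Jag1 replicate 2 (0.078) or 3 (0.081). The second was lost without replicate 2 or 3 of TGFβ/IL-34/Jag1 (0.086, 0.098) or of TGFβ/IL-34/Jag1/FICZ (0.10, 0.074). Mmp14, a membrane-bound collagenase, fell by 0.59 with FICZ in the presence of Jag1 (SE 0.14, adjusted p = 0.017, and 0.050 to 0.096 without TGFβ/IL-34/Jag1 replicate 2 or 3 or TGFβ/IL-34/Jag1/FICZ replicate 2).

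Of the biosynthesis genes, Serpinh1, the chaperone of the triple helix, was at 56.6 and 62.0 in TGFβ/IL-34, at 54.8 and 16.97 in TGFβ/IL-34/FICZ, at 29.2 in Jag1 only, at 492, 760 and 694 in TGFβ/IL-34/Jag1 and at 111, 128 and 639 in TGFβ/IL-34/Jag1/FICZ. It rose by 3.41 with Jag1 (SE 0.71, adjusted p = 0.018), a call lost without TGFβ/IL-34 replicate 1 (0.13) or 2 (0.15) and without TGFβ/IL-34/Jag1 replicate 2 (0.056) or 3 (0.058). The cross-linking enzyme Lox, which is also on the list of stroma markers, was at 0 to 1.98 without Jag1, at 26.4 in Jag1 only, at 34.4, 66.2 and 24.5 in TGFβ/IL-34/Jag1 and at 39.1, 120 and 331 in TGFβ/IL-34/Jag1/FICZ. Its values followed those of the collagens low without Jag1, and as it met the filter through the Jag1 libraries it is given without a test. P4ha2, a prolyl hydroxylase chain, was at 13.8 and 59.2 in TGFβ/IL-34, at 42.9 and 33.8 in TGFβ/IL-34/FICZ and at 194 in Jag1 only. It was at 99.9, 58.7 and 114 in TGFβ/IL-34/Jag1 and at 339, 219 and 312 in TGFβ/IL-34/Jag1/FICZ. P4ha2 was called higher for FICZ in the presence of Jag1. With Jag1 in the presence of FICZ it rose by 2.87 (SE 0.55, adjusted p = 0.029). That call was lost without TGFβ/IL-34/FICZ replicate 1 (0.073), without any of the TGFβ/IL-34/Jag1/FICZ replicates 1, 2 and 3 (0.11, 0.092, 0.11) and under array weights (0.72).

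Colgalt1, which adds galactose to hydroxylysine, was at 11737, 10073 and 9795 in TGFβ/IL-34/Jag1 and at 6229, 5355 and 6542 in TGFβ/IL-34/Jag1/FICZ, and fell by 0.80 (SE 0.15, adjusted p = 0.0050). Plod2, the lysyl hydroxylase of the collagen ends, is named here after its values were seen: it was at 21.6, 21.7 and 24.7 in TGFβ/IL-34/Jag1 and at 170, 190 and 166 with FICZ added, a rise of 2.90 (SE 0.32, adjusted p = 0.00025). It was at 41.8 to 99.7 in the 4 libraries without Jag1. TGFβ/IL-34/Jag1/FICZ replicate 3 was the highest of its group for Serpinh1, Lox and Itga1. Its Serpinh1 (639) lay within the range of TGFβ/IL-34/Jag1 (492 to 760). Plod2, Ddr1 and Colgalt1 in that library lay among or near the other replicates of its group. Its sum of stroma markers was the highest without Thy1 and Igfbp7 (3197), but not over all 16 (15888, against 17079 in replicate 1). What set this library apart was not tested.

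**Figure D5:**
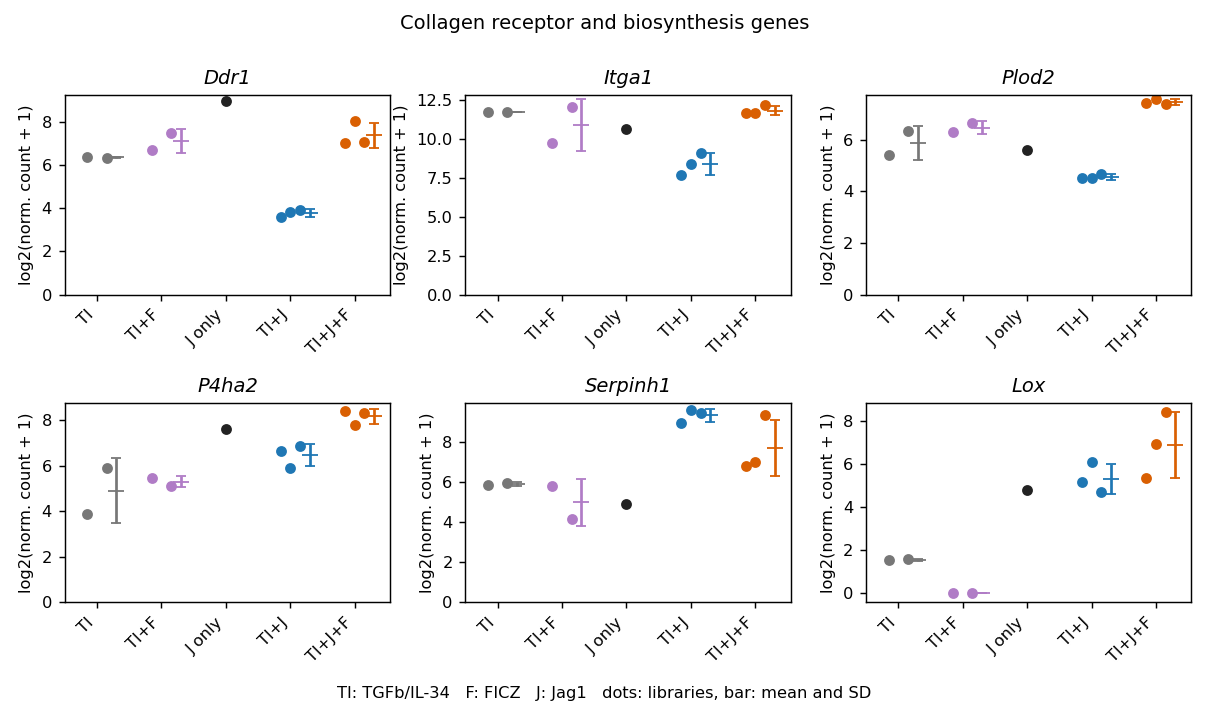
Levels of the collagen receptors Ddr1 and Itga1 and the biosynthesis genes Plod2, P4ha2, Serpinh1 and Lox in the 5 groups, as log2(normalized count + 1) on the y axis. Each dot is a library and bars give the mean and SD on that scale for groups of 2 or 3 (TI, TGFβ/IL-34; F, FICZ; J, Jag1); the TI+J dots are the lowest for Ddr1, Itga1 and Plod2, and Lox lies below 2 on this scale in TI and at 0 in TI+F.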

How the data were processed

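The authors mapped bulk RNA-seq reads of sorted cells to Ensembl GRCm39 transcripts by salmon, added transcripts up to genes by tximport and normalized by DESeq2. The table they deposited thus holds a normalized signal for each gene and no counts. Tool versions, strand handling and the filter on genes are not given in the sources used here. All columns were matched to samples by name. The members and gene lists were chosen with earlier results of these data known. Collagen types follow common usage. Only 52.0% to 57.6% of low values over all genes were whole multiples of 1 read (82.3% to 98.5% for genes with a single transcript), so no count model was run.

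Genes with at least 10 in at least 2 libraries (13095) were fitted as log2(value + 1) in limma 3.58.1 (R 4.3.3), using lmFit and contrasts.fit, then eBayes with an intensity trend, with a mean for each group, all 11 libraries and no covariate. This left 6 residual degrees of freedom. Tests were two-sided, Benjamini-Hochberg adjusted over all genes of a contrast, with a threshold of 0.05. The code was tested on simulated data. Since no label says that replicates came from separate animals, p-values measure only the spread between these libraries, which may be technical. Fold limits against groups at 0 used 3 reads per library, and cover counting error only. Named members reached 10 in some library. Members with a group mean of at least 50 are given in every library, Col3a1 in ranges. Of the pathway list, up to 3 called genes per direction and contrast with a mean of at least 50 are named, and Plod2 was added. The alternatives tried were array weights, pseudocounts of 0.5 and 4, a fit to the groups compared alone, quantile normalization, no filter, a block for replicate number, experiment code or flow cell, and each replicate left out. The flow cell was read from a code in the column names that no label explains.

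Replicate numbers were taken to pair the groups with Jag1 across FICZ, since same-numbered libraries share an experiment code in the sample descriptions and their deviations from the group means correlated at 0.15, 0.12 and 0.17. Replicates 1 and 2 of TGFβ/IL-34/FICZ also shared a code with the same-numbered TGFβ/IL-34/Jag1/FICZ libraries, and their deviations correlated at 0.059 and 0.058. No other groups were taken as paired. The experiment code in the metadata table of the authors differed from the description in 1 library, TGFβ/IL-34 replicate 1, and the code of the description was used. Gene positions came from GENCODE on GRCm39, matched for all 44 members by Ensembl identifier.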

Additional observations from a re-analysis of the deposited data

Results flagged for a closer look

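The interaction term of limma compared the FICZ effect with and without Jag1. It called 3 of the 39 tested genes of the collagen pathway list, beside 1.39% of all genes tested. The effect with Jag1 exceeded that without it by 2.85 on the log2 scale for Ddr1 (SE 0.57, adjusted p = 0.043), by 4.28 for Itga1 (SE 0.83, adjusted p = 0.043) and by 5.33 for Mmp8 (SE 1.03, adjusted p = 0.043). Ddr1 and Itga1 are collagen receptors and Mmp8 is a collagenase. All 3 calls lay close to the threshold. Over the alternatives the adjusted p ranged from 0.0024 to 0.32 (Ddr1), 0.00019 to 0.23 (Itga1) and 0.010 to 0.28 (Mmp8), with the call lost in 13, 11 and 12 of 20. Ddr1 kept its call with TGFβ/IL-34/FICZ replicate 2 left out and lost it without any other library of the contrast. Itga1 kept it only without either library of TGFβ/IL-34/FICZ, and Mmp8 without replicate 1 or 3 of TGFβ/IL-34/Jag1 or replicate 2 of TGFβ/IL-34/FICZ. Without TGFβ/IL-34 replicate 2 the adjusted p was 0.23 for Ddr1 and Itga1 and 0.24 for Mmp8.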

How the results depend on the processing

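The main counts were 11 of 23 collagens for Jag1 without FICZ, 9 for Jag1 with FICZ, 5 for FICZ with Jag1, and 0 for FICZ without Jag1 and for the interaction. Of all genes tested, 6.60%, 2.02%, 17.7%, 0.0229% and 1.39% were called in the same order. Of the Jag1 calls, 8 of the 11 and all 9 came from members that met the filter only through the Jag1 libraries. Without the filter on low values they were 7, 7, 3, 0 and 0. Array weights gave 13, 0, 8, 0 and 0, and Jag1 with FICZ dropped to 3 when only its own groups were fitted. The share of all genes called under each alternative is not reported here, so these changes cannot be read as particular to collagens. Their cause was not tested. With 1 library left out, the counts ranged from 3 to 9 (Jag1 without FICZ), 5 to 11 (Jag1 with FICZ), 3 to 5 (FICZ with Jag1), 0 to 2 (FICZ without Jag1) and 0 to 2 (interaction), with any group of 1 library borrowing the spread of the rest. With the replicate number as a block, FICZ with Jag1, the comparison whose libraries were paired, called 6, and all 5 main calls remained. For Jag1 with FICZ, replicates 1 and 2 share an experiment code across the groups, and the block gave 7. For Jag1 without FICZ and FICZ without Jag1, same-numbered libraries differ in the code of the sample descriptions. The block gave 8 and 0 there, and 0 for the interaction. With the experiment code as a block the counts were 9, 8, 6, 0 and 0, and the Jag1 calls of Col4a2, Col9a2 and Col20a1 were lost. For FICZ with Jag1 the replicate block ended no call of a named pathway gene. Collagens absent without Jag1 numbered 2 by the rule of 0, 4 at or under 3 reads, 10 at or under 5 normalized counts (a limit added after seeing the data, as was the block for the experiment code of the authors' table), and 2 to 5 with 1 library left out. Collagens present in every group numbered 10 by the main rule, 7 with a mean of at least 20, and 8 to 10 with 1 library left out.

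Over 656 values of single called genes under the alternatives, 486 kept their call, 170 lost it and 0 changed direction. Among these are the Jag1 calls of Lox and of the collagens that met the filter only through the Jag1 libraries. That choice favours a rise with Jag1, so the tally is no measure of how firm those calls are. Groups of 2 and 3 libraries, a lone Jag1-only library and a pair of TGFβ/IL-34/FICZ libraries that differed more than other replicates limit the number of calls. A read was worth about 1 normalized count, so values under 3 rest on few reads. Depth does not separate a collagen at 0 from one below that floor.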
